A study of Mus musculus with 13 samples.

Results

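The 10 genes described here encode the nuclear receptors that control fuel use in heart muscle and the PGC-1 coactivators that work with them: Ppara, Ppard, Pparg, Rxra, Rxrg, Esrra, Esrrb, Esrrg, Ppargc1a and Ppargc1b. They were selected by symbol from the 36172 gene entries of the deposited count table. All 10 passed the filter on low counts, which kept 13434 genes for testing.

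The study sequenced RNA from the nonischaemic part of the left ventricle in 3 groups of C57BL/6JO1aHsd mice. In the first group, 5 mice had surgery for myocardial infarction (MI) and received 10 mg/kg of FG-3149, which binds and blocks the matricellular protein CTGF (connective tissue growth factor). In the second group, 5 mice had the same surgery and received 10 mg/kg of IgG, the control antibody. In the control group, 3 mice had sham surgery and no treatment. All mice were 8 to 10 weeks old at the start of treatment and carried the time label 1W+6W, which the labels do not explain. Infarct size and heart function are not given in the labels. The libraries were made from whole tissue, so a lower level of a transcript in fewer cells and a lower level per cell cannot be told apart.

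PPAR proteins (Ppara, Ppard, Pparg) are receptors for fatty acids and their derivatives, and each binds DNA as a pair with a retinoid X receptor (RXR) to switch on genes for the uptake, storage or oxidation of fat. The oestrogen-related receptors (ERRs, from Esrra, Esrrb and Esrrg) have no established natural ligand and drive genes of the citric acid cycle and the respiratory chain. PGC-1α (Ppargc1a) and PGC-1β (Ppargc1b) bind no DNA themselves but dock on PPAR and ERR proteins and raise their activity, and the set is best known in the heart for maintaining the mitochondria that burn fatty acids.

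Totals ran from 10954922 to 12794823 estimated counts in the FG-3149 libraries, from 13084735 to 17567238 in the IgG libraries and from 12025880 to 14999813 in the sham libraries, so the FG-3149 and IgG totals did not overlap. Cardiomyocyte markers were abundant in every library and summed to between 103670.5 and 111960.7 CPM (counts scaled to the library total) in the FG-3149 group, between 98944.0 and 107840.8 CPM in the IgG group and between 110816.6 and 119986.8 CPM in the sham group. Fibroblast markers summed to between 4333.1 and 4972.6 CPM in the FG-3149 group, between 4726.5 and 6930.4 CPM in the IgG group and between 2831.9 and 3023.5 CPM in the sham group. Macrophage markers summed to between 544.7 and 855.9 CPM in the FG-3149 group, between 510.8 and 776.8 CPM in the IgG group and between 376.9 and 385.6 CPM in the sham group. Against sham hearts, 12 of 13 fibroblast markers rose in each infarcted group, while 11 of 13 macrophage markers rose with FG-3149 and 10 of 13 with IgG (edgeR, adjusted p under 0.05). Over all tested genes, 15.6% rose and 13.9% fell with FG-3149, and 17.8% rose and 15.9% fell with IgG. The macrophage count with FG-3149 was 6 without sham library 1, 5 without sham library 2 and 7 without sham library 3. Among 13 cardiomyocyte markers, 5 fell and 2 rose with FG-3149, and 5 fell and 1 rose with IgG, with list medians of 0.04 on the log2 scale in each. The 2 that rose were 1 without FG-3149 library 3, 4 or 5 or sham library 1 or 3. Markers of atrial muscle summed to between 2.2 and 3.3 CPM in the FG-3149 group, to 2.6, 2.6, 3.2, 30.5 and 46.6 CPM in IgG libraries 1 to 5 and to between 1.4 and 3.5 CPM in the sham group. Without IgG libraries 4 and 5 together, the same members passed as with all libraries, 5 lower with IgG and 4 lower and 1 higher with FG-3149 (edgeR). Rn45s, the entry for the ribosomal RNA precursor, had between 1948.81 and 29519.72 CPM in the FG-3149 group, between 6521.37 and 19465.98 CPM in the IgG group and between 2738.19 and 3384.87 CPM in the sham group, with 4 of 5 FG-3149 libraries and all 5 IgG libraries above every sham library. The part of Rn45s and of these cell type markers in the results below was not tested. Reads also lay differently along genes. The first-exon share is the part of a gene's exon reads in the first exons of all its multi-exon transcripts. Over 9437 genes, its median was 1.86% to 2.19% in FG-3149 libraries, 0.777% to 1.29% in IgG libraries and 0.624% to 0.765% in sham libraries. No 2 groups overlapped.

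Several of the 10 genes were lower in infarcted hearts than in sham hearts in tissue away from the infarct, led by Rxrg and Ppargc1a, and 0 passed the test between the antibodies. Compared with sham, 5 of the 10 genes fell in MI+IgG hearts (Rxra, Rxrg, Esrra, Esrrg and Ppargc1a) and 0 rose, where 15.9% of all tested genes fell and 17.8% rose (edgeR, adjusted p under 0.05). In MI+FG-3149 hearts 4 fell compared with sham (Rxra, Rxrg, Esrrg and Ppargc1a) and 1 rose (Esrrb), where 13.9% of all tested genes fell and 15.6% rose. By library values, 4 members with IgG lay wholly below sham (Rxra, Rxrg, Esrra and Ppargc1a) and 0 wholly above, where 17.7% and 18.2% of all tested genes did. With FG-3149, 4 members lay wholly below sham (Rxra, Rxrg, Esrrg and Ppargc1a) and 1 wholly above (Esrrb), where 15.6% and 16.6% of all tested genes did. The median log2 fold change of the 10 genes was -0.18 in each of these comparisons, beside -0.0015 with FG-3149 and -0.0010 with IgG over all tested genes. Both comparisons use the same 3 sham libraries and are not independent of each other. Between MI+FG-3149 and MI+IgG, 0 of the 10 genes passed, where 0.916% of all tested genes rose and 0.156% fell.

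**Figure D1:**
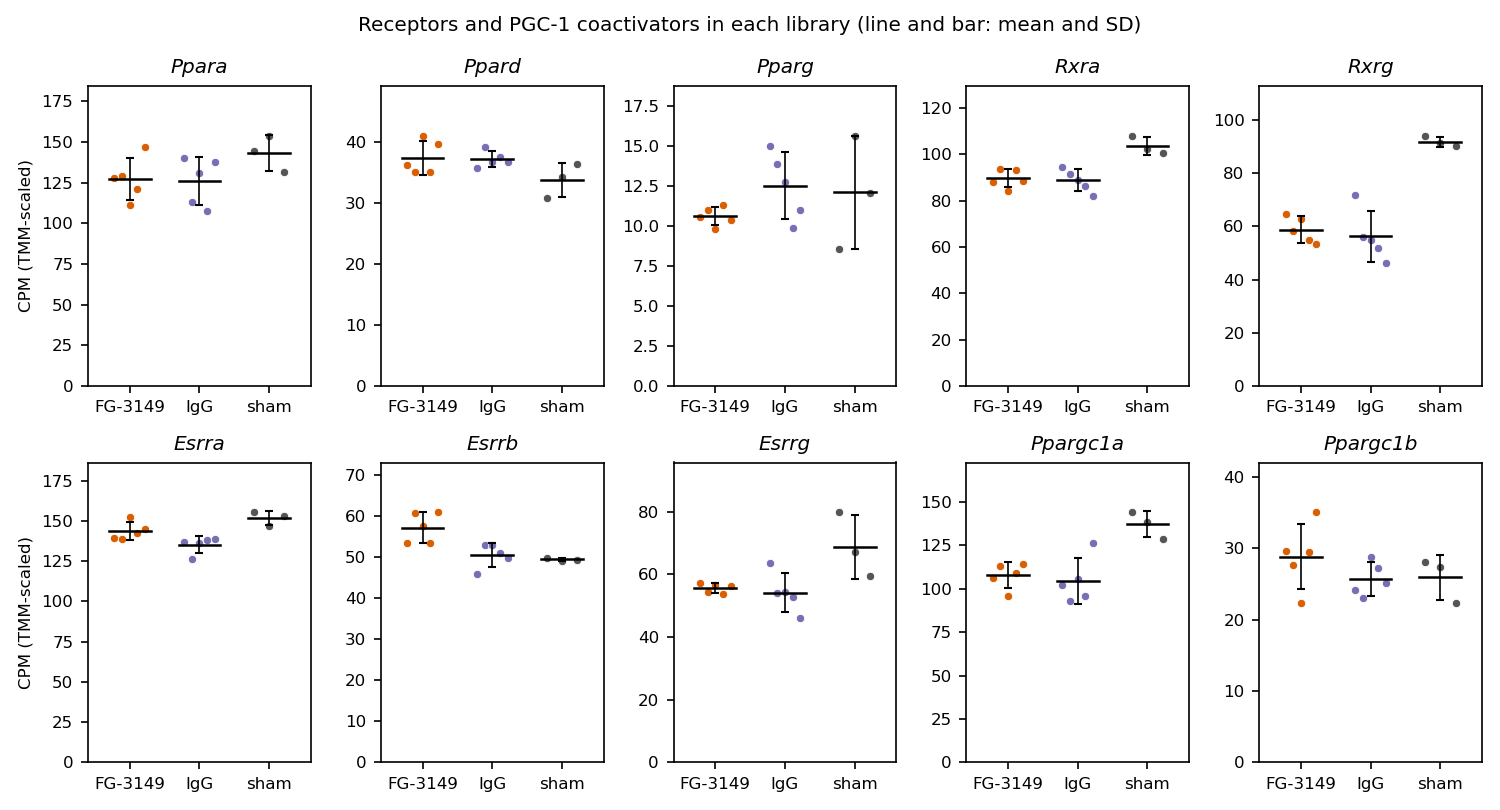
Level of each of the 10 genes in every library, in CPM with TMM scaling (vertical axis, starting at 0), for MI+FG-3149, MI+IgG and sham from left to right. Points are libraries, and lines with bars are the mean and SD of a group. The 3 sham libraries of Rxrg, between 90.1 and 94.0 CPM, lie above all 10 libraries of infarcted hearts.

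The 3 PPAR genes did not pass the test in any of the comparisons. Ppara, which activates fatty acid oxidation in heart muscle, had 128, 129, 111, 121 and 147 CPM in the FG-3149 libraries, 140.1, 113, 131, 108 and 137 CPM in the IgG libraries, and 144, 154 and 131 CPM in the sham libraries. The groups overlapped, and the lowest values were in infarcted hearts. The log2 fold change from sham was -0.17 with FG-3149 (95% interval -0.37 to 0.03, edgeR adjusted p = 0.188) and -0.19 with IgG (95% interval -0.39 to 0.01, edgeR adjusted p = 0.136). Ppard, a widely expressed family member that also serves fatty acid oxidation in the heart, had 36.3, 35.1, 41.0, 35.1 and 39.7 CPM with FG-3149, 35.8, 39.2, 36.8, 37.6 and 36.8 CPM with IgG, and 30.8, 34.3 and 36.4 CPM in sham. All 3 groups of Ppard overlapped, with the lowest 2 of 13 values in sham hearts. Its log2 fold change from sham was 0.14 with each antibody (95% interval -0.01 to 0.30 with FG-3149 and -0.01 to 0.29 with IgG). Pparg, the regulator of fat cell formation, had 10.6, 11, 9.83, 11.4 and 10.4 CPM with FG-3149, 15.0, 13.9, 12.8, 9.90 and 10.99 CPM with IgG, and 8.59, 15.7 and 12.1 CPM in sham. Here the sham libraries were the most spread, and spanned both antibody groups. The log2 fold change of Pparg was -0.19 for FG-3149 against sham (95% interval -0.53 to 0.15) and 0.04 for IgG against sham (95% interval -0.29 to 0.37).

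The 11 fat cell markers listed summed to 127.4 CPM in FG-3149 library 3 and 126.7 CPM in IgG library 5. Sums were 69.7 to 83.1 CPM in the other FG-3149 libraries, 78.2 to 83.3 CPM in the other IgG libraries and 83.5 to 88.9 CPM in sham. Of 5 tested, 1 rose and 1 fell against sham in each infarcted group. Over all tested genes, 15.6% rose and 13.9% fell with FG-3149, and 17.8% and 15.9% with IgG. Both rises were lost without sham library 1. The 3 markers below were chosen after their values were seen. Adipoq, which fat cells secrete as adiponectin, reached 3.73 CPM in FG-3149 library 3 and 5.45 CPM in IgG library 5, against at most 0.65 CPM in the other infarcted libraries and 0 CPM in all 3 sham libraries. Cidec and Plin1, proteins of the fat droplet, were highest in the same 2 libraries, at 3.64 and 1.82 CPM in FG-3149 library 3 and 6.53 and 1.46 CPM in IgG library 5. Pparg was not raised there, at 9.83 CPM in FG-3149 library 3 and 10.99 CPM in IgG library 5. With both libraries left out, Rxrg, Rxra, Esrrg and Ppargc1a still passed in each infarcted group against sham, as did Esrra with IgG and Esrrb with FG-3149, and no further member passed (edgeR).

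The RXR partners fell in both infarcted groups, with the larger difference in Rxrg. RXRα from Rxra is the widely expressed partner of PPAR proteins, and RXRγ from Rxrg is the form typical of striated muscle. Rxra (chr2:27677201-27763319, mm10, + strand) had 88.2, 93.6, 84.3, 93.2 and 88.6 CPM in the FG-3149 libraries, 94.5, 91.6, 89.1, 86.5 and 82.1 CPM in the IgG libraries, and 108, 102 and 101 CPM in the sham libraries. Every infarcted library was below every sham library. The log2 fold change of Rxra was -0.21 ± 0.06 with FG-3149 (standard error, edgeR adjusted p = 0.00898) and -0.22 ± 0.06 with IgG (edgeR adjusted p = 0.00455). Rxrg (chr1:167598362-167639623, + strand) had 64.6, 58.4, 62.9, 54.7 and 53.3 CPM in the FG-3149 libraries, 72.0, 56.1, 54.8, 51.9 and 46.3 CPM in the IgG libraries, and 94.0, 91.3 and 90.1 CPM in the sham libraries. The sham values lay close together and far above both infarcted groups. On the log2 scale Rxrg changed by -0.64 ± 0.10 with FG-3149, which is 36.0% lower than sham (edgeR adjusted p = 0.000345), and by -0.71 ± 0.10 with IgG, which is 38.8% lower than sham (edgeR adjusted p = 8.91e-05). Counted on the last exon alone, Rxrg kept its log2 fold changes of -0.69 with FG-3149 and -0.70 with IgG, whereas Rxra with FG-3149 shrank to -0.08 (edgeR adjusted p = 0.387). The Rxra call with FG-3149 was also lost without sham library 1 (edgeR adjusted p = 0.0581).

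The larger fall of Rxrg than of Rxra also appeared in their ratio, which restates the same values. By RPKM, which scales reads to transcript length and library total, the ratio of Rxrg to Rxra was 2.26, 1.93, 2.29, 1.81 and 1.85 in FG-3149 hearts, 2.35, 1.89, 1.90, 1.85 and 1.74 in IgG hearts, and 2.69, 2.76 and 2.78 in sham hearts. Rxrg was the more abundant per length in all 13 libraries, and no infarcted library reached the sham range of the ratio. The RPKM ratio of Ppara to Ppard overlapped between all groups. It was 1.19 to 1.62 with FG-3149, 1.26 to 1.73 with IgG and 1.59 to 2.07 in sham. How often other gene pairs separate in this way was not counted.

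Rxrg reads came mostly from its shorter transcript, which starts at the gene's exon 3. The transcript shares in the authors' count table assigned it 89.3% to 93.5% of the gene in FG-3149 libraries. They assigned it 90.5% to 92.0% in IgG libraries and 92.2% to 93.6% in sham libraries. Exon 3, of 231 bases, held between 28.8 and 58.5 reads with FG-3149, between 30.4 and 52.3 with IgG and between 58.1 and 76.5 in sham, while exon 1 of the longer transcript held between 5.0 and 11.1 reads with FG-3149, between 4.21 and 11.4 with IgG and between 3.67 and 9.76 in sham. The 250 bases before each Rxrg start are printed below because they are the sequence in front of the member with the largest change, with the 250 bases before the single Esrra start, the member with the highest level, beside them. The sequences are RefSeq's on GRCm38.p6, the assembly of mm10, written 5′ to 3′ on the gene's strand, and capitals mark AAGGTCA, the extended half-site that ERR proteins are known to bind.

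Rxrg, longer transcript, chr1:167598112-167598361 (+): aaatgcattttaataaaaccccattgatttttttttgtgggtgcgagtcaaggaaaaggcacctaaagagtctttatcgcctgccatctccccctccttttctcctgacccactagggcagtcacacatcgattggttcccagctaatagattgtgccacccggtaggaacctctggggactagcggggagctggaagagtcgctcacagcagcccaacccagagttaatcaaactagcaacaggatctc

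Rxrg, shorter transcript, chr1:167618015-167618264 (+): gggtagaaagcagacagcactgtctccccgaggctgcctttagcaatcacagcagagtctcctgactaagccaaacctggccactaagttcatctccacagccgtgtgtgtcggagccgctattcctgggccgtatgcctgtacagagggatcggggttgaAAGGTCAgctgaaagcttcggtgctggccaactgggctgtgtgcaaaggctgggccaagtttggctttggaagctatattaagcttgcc

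Esrra, chr19:6921809-6922058 (-): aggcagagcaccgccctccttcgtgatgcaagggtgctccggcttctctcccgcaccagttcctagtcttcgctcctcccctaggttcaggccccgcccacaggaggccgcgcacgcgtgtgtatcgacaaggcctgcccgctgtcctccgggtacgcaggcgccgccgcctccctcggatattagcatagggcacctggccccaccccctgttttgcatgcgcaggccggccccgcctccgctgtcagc

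Among the 11 windows, from 8 members, that end at a transcript start of the count table, only the window of the shorter Rxrg transcript matched any of 5 motifs searched on both strands. The motifs were the half-site AGGTCA, its extended form AAGGTCA, the direct repeat AGGTCANAGGTCA, the E-box CACGTG and the cyclic AMP element TGACGTCA, and the half-site is contained in the extended form and in the repeat. The match lies at bases -89 to -83 from the start. Across 32851 windows of the same length in the RefSeq table, AGGTCA occurs in 14%, AAGGTCA in 4.08%, CACGTG in 6.02%, TGACGTCA in 1.55% and AGGTCANAGGTCA in 0.0335%. Of the other windows, whose starts are not in the count table, 1 of Rxra holds AAGGTCA at bases -49 to -43 and a further AGGTCA on the other strand, and 2 of Pparg hold AGGTCA. A match describes letters only, and nothing was measured on binding.

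Among the ERR genes, Esrra passed lower with IgG only, Esrrg passed lower with each antibody and Esrrb passed higher with FG-3149 only. Each of these calls against sham was lost without sham library 1. Esrra (chr19:6910977-6921808, - strand), a main activator of mitochondrial genes, had 139, 139, 153, 143 and 145 CPM in the FG-3149 libraries, 137, 126, 136, 138 and 139 CPM in the IgG libraries, and 155, 147 and 153 CPM in the sham libraries. The IgG libraries were all below sham, while the FG-3149 libraries overlapped with sham. Esrra fell with IgG by a log2 fold change of -0.17 ± 0.05 (edgeR adjusted p = 0.0154), and with FG-3149 its log2 fold change was -0.08 ± 0.05 (edgeR adjusted p = 0.249). The call with IgG was lost without sham library 1 (edgeR adjusted p = 0.0697) or sham library 3 (edgeR adjusted p = 0.0558). Esrra overlaps the end of Trmt112 on the opposite strand, and the strand setting of the counts is not given in the sources used here.

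Esrrb (chr12:86361117-86521628, + strand), known mainly from embryonic stem cells and the inner ear, had 53.5, 60.8, 57.5, 53.4 and 60.9 CPM with FG-3149, 45.9, 53.1, 53.1, 51.1 and 49.7 CPM with IgG, and 49.9, 49.2 and 49.3 CPM in sham. Every FG-3149 library was above every IgG and every sham library, although the nearest values, 53.4 with FG-3149 and 53.1 with IgG, differed little. Against sham, Esrrb rose with FG-3149 by 0.21 ± 0.07 on the log2 scale, or 15.8% (edgeR adjusted p = 0.0209), and its log2 fold change with IgG was 0.03 ± 0.06 (edgeR adjusted p = 0.724). Leaving out any 1 of the 3 sham libraries ended that call, with adjusted p of 0.0542 to 0.0701 by edgeR.

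Esrrg (chr1:187609006-188214884, + strand), which drives oxidative genes in heart and skeletal muscle, had 57.3, 54.5, 56.7, 53.6 and 56.3 CPM with FG-3149, 63.6, 53.9, 54.4, 52.9 and 46.1 CPM with IgG, and 79.7, 67.0 and 59.3 CPM in sham. The FG-3149 libraries were all below sham, and 1 IgG library exceeded the lowest sham library. Sham library 1 stood well above the other sham libraries. Esrrg fell in both infarcted groups, with log2 fold changes of -0.30 ± 0.09 with FG-3149 (edgeR adjusted p = 0.0179) and -0.34 ± 0.09 with IgG (edgeR adjusted p = 0.00692). Fitted on the RPKM of its highest transcript alone, Esrrg did not pass and was 0.08 with FG-3149 and -0.24 with IgG, whereas summed over transcripts it passed at -0.28 and -0.30. Without sham library 1 neither difference passed, at -0.18 with FG-3149 (edgeR adjusted p = 0.161) and -0.22 with IgG (edgeR adjusted p = 0.0807). The RPKM ratio of Esrrb to Esrrg was 1.17, 1.40, 1.28, 1.25 and 1.35 in FG-3149 hearts, 0.901, 1.23, 1.23, 1.21 and 1.34 in IgG hearts, and 0.781, 0.922 and 1.04 in sham hearts. Only the FG-3149 libraries lay wholly above sham in this ratio.

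**Figure D2:**
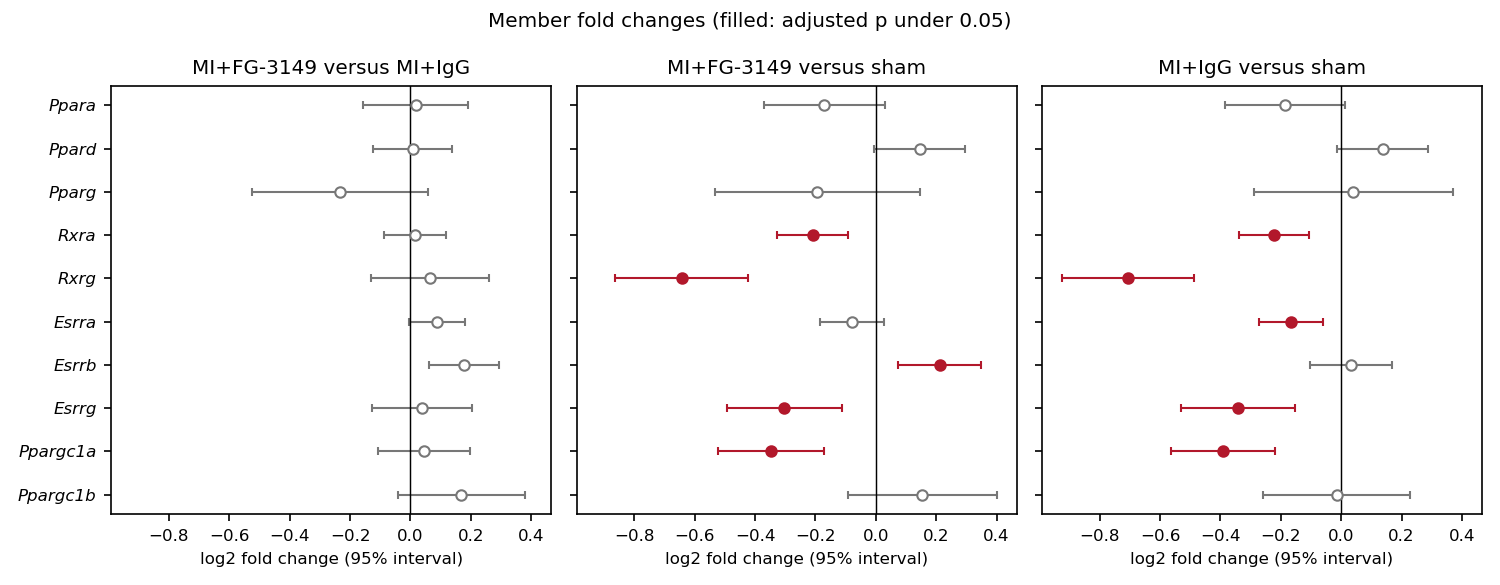
Log2 fold change of each gene in the comparisons MI+FG-3149 versus MI+IgG, MI+FG-3149 versus sham and MI+IgG versus sham (horizontal axis), with 95% intervals from edgeR as lines. Rxrg lies farthest below 0 in both comparisons with sham, at -0.64 with FG-3149 and -0.71 with IgG, and Esrrb is the single gene called higher.

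The PGC-1 genes split. Ppargc1a (chr5:51454249-51553921, - strand), the coactivator that responds to energy demand, had 106, 113, 95.9, 109 and 115 CPM in the FG-3149 libraries, 102, 93.2, 106, 96.0 and 127 CPM in the IgG libraries, and 144, 139 and 129 CPM in the sham libraries. Every infarcted library was below every sham library, the closest being IgG library 5. Ppargc1a fell in both infarcted groups, with log2 fold changes of -0.35 ± 0.08 with FG-3149, 21.4% below sham (edgeR adjusted p = 0.00471), and -0.39 ± 0.08 with IgG, 23.8% below sham (edgeR adjusted p = 0.00146). Counted on its last exon alone, the log2 fold changes were -0.47 with FG-3149 and -0.50 with IgG. Ppargc1b, which is less tied to acute demand, had 29.7, 27.7, 22.4, 29.5 and 35.1 CPM with FG-3149, 24.2, 23.0, 28.8, 27.3 and 25.1 CPM with IgG, and 28.1, 27.4 and 22.4 CPM in sham. Its 3 groups overlapped over most of their range. The log2 fold change of Ppargc1b was 0.15 with FG-3149 (95% interval -0.09 to 0.40, edgeR adjusted p = 0.341) and -0.01 with IgG (95% interval -0.26 to 0.23, edgeR adjusted p = 0.938). The RPKM ratio of Ppargc1a to Ppargc1b was 2.02, 2.31, 2.42, 2.08 and 1.84 in FG-3149 hearts, 2.39, 2.28, 2.06, 1.99 and 2.84 in IgG hearts, and 2.89, 2.86 and 3.25 in sham hearts. All infarcted libraries were below sham, although IgG library 5 at 2.84 was almost tied with sham library 2 at 2.86.

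IgG library 5, with the highest Ppargc1a of its group, also stood apart in the clock gene Nr1d1. Nr1d1, a clock repressor, was at 58.46 CPM there, against 125.75 to 165.83 CPM in the other IgG libraries. Arntl, the core clock activator, had 13.85, 14.97, 18.47, 2.98 and 2.76 CPM with FG-3149, 15.76, 15.32, 4.82, 3.12 and 2.46 CPM with IgG, and 37.44, 31.90 and 31.66 CPM in sham. The infarcted groups were each divided into libraries with higher and lower Arntl. All were below sham, as for 15.6% of all tested genes with FG-3149 and 17.7% with IgG. Of 15 clock genes tested, 4 rose and 2 fell with FG-3149, and 6 rose and 3 fell with IgG. Over all tested genes, 15.6% rose and 13.9% fell with FG-3149, and 17.8% rose and 15.9% fell with IgG. With single libraries left out, 1 to 7 rose and 0 to 2 fell with FG-3149, and 2 to 7 rose and 0 to 3 fell with IgG. Dbp, a clock output gene, rose to 114.83 ± 49.74 CPM with FG-3149 (SD, n = 5, edgeR adjusted p = 0.00187) and to 93.78 ± 42.41 CPM with IgG (SD, n = 5, edgeR adjusted p = 0.00241), against 14.71 ± 2.75 CPM in sham (SD, n = 3). The time of day of sampling is not given in the labels, and the part of clock phase in the member values was not tested.

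Against IgG, FG-3149 gave log2 fold changes between -0.23 for Pparg and 0.18 for Esrrb. At an unadjusted p under 0.05 the count was 1 member by edgeR (Esrrb), 2 by DESeq2 and 1 by limma voom, where 13.8% of all tested genes met that level by edgeR, and 0 passed after adjustment by any of these tools. Esrrb was higher with FG-3149 in all 5 libraries, by 0.18 ± 0.06 (edgeR quasi-likelihood test, adjusted p = 0.144). Esrra was also higher in all 5 FG-3149 libraries, by 0.09 ± 0.04 (95% interval -0.004 to 0.18, edgeR adjusted p = 0.390). Of all tested genes, 1.9% had every FG-3149 library above every IgG library and 1.24% every one below. The nearest Esrra values were almost tied, at 139 CPM with FG-3149 and 138.9 CPM with IgG. In RPKM the antibody groups overlapped for both genes. The lowest FG-3149 and highest IgG values were 61.04 and 62.86 RPKM for Esrra and 12.29 and 12.55 RPKM for Esrrb. For the genes that fell against sham, the 95% interval of the log2 difference between FG-3149 and IgG was -0.13 to 0.26 for Rxrg, -0.09 to 0.12 for Rxra, -0.13 to 0.20 for Esrrg and -0.11 to 0.20 for Ppargc1a. The data do not tell apart differences within those bounds. Ctgf mRNA, which encodes the antibody's target protein, ranged from 182.69 to 325.09 CPM with FG-3149, from 233.28 to 439.20 CPM with IgG and from 37.76 to 46.91 CPM in sham.

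**Figure D3:**
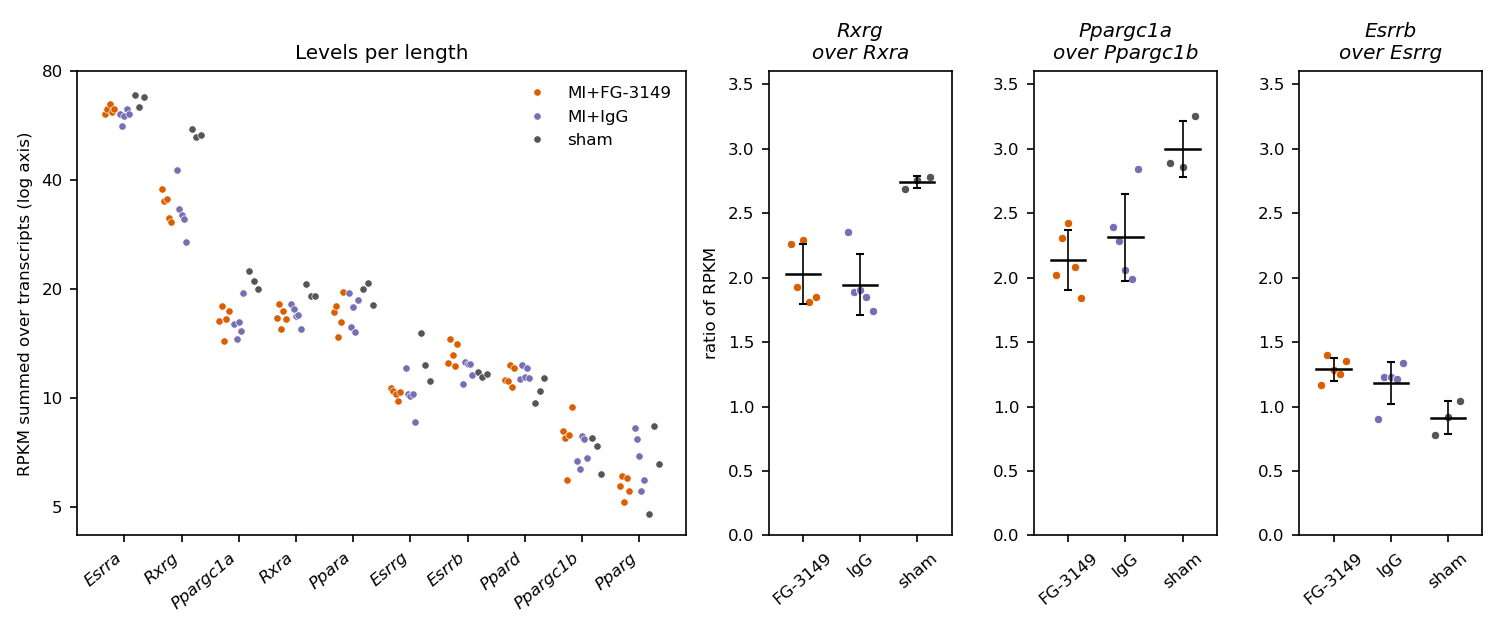
Left, level of each gene per length in RPKM (log axis) in every library, by group. Right, RPKM ratios of related members in every library, with lines and bars for the mean and SD. The ratios of Rxrg to Rxra and of Ppargc1a to Ppargc1b lie lower in all 10 infarcted libraries than in the 3 sham libraries. For Ppargc1a to Ppargc1b the nearest values, 2.84 with IgG and 2.86 in sham, differ little.

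Levels per length can be compared between genes in RPKM, summed over a gene's transcripts. Esrra led every group, at 62.8 ± 1.54 RPKM with FG-3149, 60.2 ± 2.39 RPKM with IgG and 66.9 ± 2.76 RPKM in sham (SD, n = 5, 5 and 3). Rxrg came next at 34.1 ± 3.01 RPKM with FG-3149, 33.3 ± 5.82 RPKM with IgG and 53.8 ± 1.52 RPKM in sham, clear of its neighbours in each group. Ppara, Rxra and Ppargc1a followed in overlapping ranges, at 17.2 ± 1.83, 16.9 ± 0.998 and 16.5 ± 1.37 RPKM with FG-3149, 17.4 ± 1.89, 17.0 ± 1.01 and 16.3 ± 1.87 RPKM with IgG, and 19.6 ± 1.40, 19.6 ± 0.868 and 21.1 ± 1.21 RPKM in sham. Esrrb, Ppard and Esrrg formed the next tier, with Esrrb overlapping Ppargc1a in the FG-3149 group. Esrrb had 13.3 ± 0.982 RPKM with FG-3149, 11.96 ± 0.710 RPKM with IgG and 11.6 ± 0.194 RPKM in sham, and Ppard had 11.5 ± 0.692 RPKM with FG-3149, 11.7 ± 0.472 RPKM with IgG and 10.49 ± 0.846 RPKM in sham. Esrrg had 10.3 ± 0.308 RPKM with FG-3149, 10.3 ± 1.25 RPKM with IgG and 12.9 ± 2.0 RPKM in sham, and was below Ppard with FG-3149 without overlap. Ppargc1b, at 7.82 ± 1.25 RPKM with FG-3149, 7.10 ± 0.653 RPKM with IgG and 7.08 ± 0.833 RPKM in sham, and Pparg, at 5.69 ± 0.380 RPKM with FG-3149, 6.87 ± 1.15 RPKM with IgG and 6.57 ± 1.80 RPKM in sham, were lowest and overlapped each other in every group.

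Transcript values below the gene level were less secure. The authors' estimates gave the Ppara transcript that starts at exon 1 between 39.9% and 51.7% of the gene with FG-3149, between 49.1% and 70.1% with IgG and between 64.5% and 75.9% in sham, yet exon 1, of 83 bases, held at most 0.35 reads in any library. Similarly, an Esrrg transcript with its own exon 3 was assigned between 3.74% and 44.2% of the gene with FG-3149, between 9.15% and 49.7% with IgG and between 31.6% and 49.5% in sham, while that exon held at most 1.71 reads. For Pparg, exon 3 held at most 0.16 reads although the transcript that starts there was assigned between 3.44% and 45.7% of the gene over all libraries. No isoform difference is therefore reported for these 3 genes. Fitted on the RPKM of its highest transcript alone, Ppara passed at a log2 fold change of -0.70 with FG-3149 and -0.46 with IgG, against -0.19 and -0.17 without a call when its transcripts were summed (limma). Esrra and Ppargc1a were the 2 members whose first-exon share was higher in all FG-3149 libraries than in all IgG libraries. Esrra had 1.14% to 2.11% of its exon reads there with FG-3149, 0.149% to 0.523% with IgG and 0.0812% to 0.36% in sham. For Ppargc1a the share was 0.659% to 1.09% with FG-3149, 0.213% to 0.578% with IgG and 0.11% to 0.602% in sham. Rxrg overlapped, at 5.15% to 8.6% with FG-3149, 4.11% to 6.22% with IgG and 5.74% to 6.4% in sham. Its share counts both exon 1 and exon 3, where its shorter transcript starts. Counting members whose FG-3149 libraries all exceeded the other group, there were 2 of 10 against IgG, beside 33.7% of 9437 genes, and 6 of 10 against sham, beside 54.8%, while the IgG libraries exceeded sham in this way for 0 of 10 members, beside 8.29%. The part of this shift in read position in the gene-level results was not tested beyond the counts of the last exon given above.

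**Figure D4:**
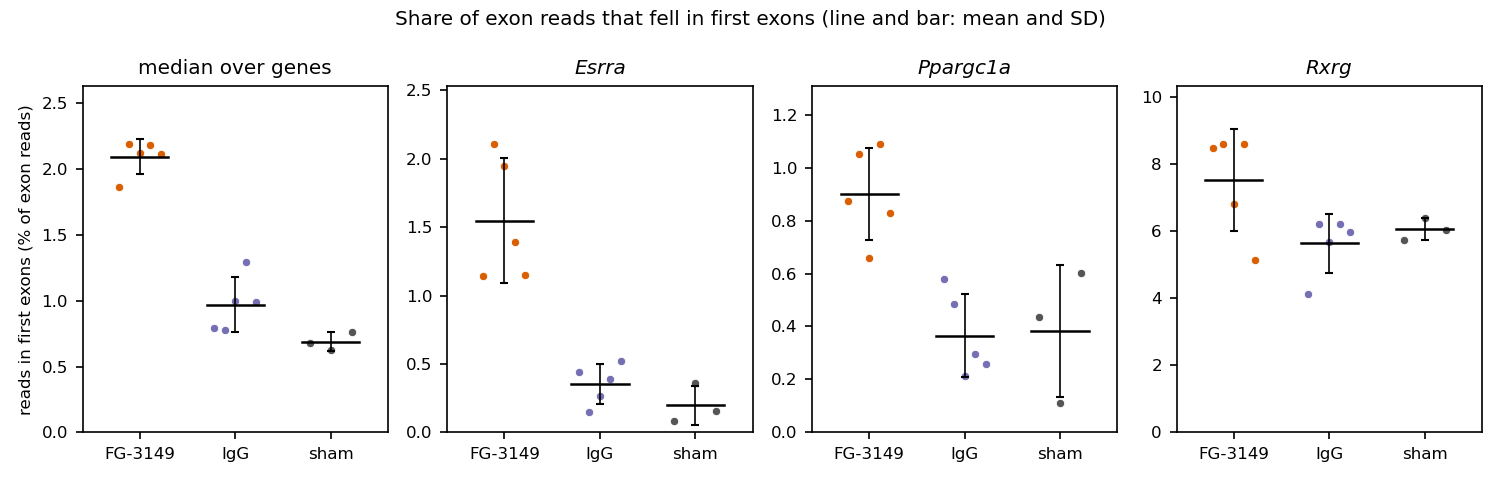
Share of exon reads in the first exons of all multi-exon transcripts of a gene, in percent, for MI+FG-3149, MI+IgG and sham. Panels show Esrra, Ppargc1a and Rxrg and the median over 9437 genes (points, 1 per library, with the mean and SD). The medians of the 5 FG-3149 libraries, 1.86% to 2.19%, lie above those of the IgG and sham libraries.

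Genes that the receptors are known to control fell widely in the infarcted groups. The shares of all tested genes that fell were 13.9% with FG-3149 and 15.9% with IgG, and 15.6% and 17.8% rose. Among 34 tested PPAR target genes of fatty acid handling, 22 fell and 0 rose with FG-3149, and 25 fell and 0 rose with IgG, with median log2 fold changes of -0.36 and -0.48. Decr1, an enzyme for the oxidation of unsaturated fatty acids, fell to 524.6 ± 27.4 CPM with FG-3149 and to 486.3 ± 37.8 CPM with IgG, against 712.1 ± 11.3 CPM in sham (log2 fold changes -0.44 and -0.55). Eci1, which isomerises such fatty acids for oxidation, fell to 230.3 ± 17.5 CPM with IgG, against 332.4 ± 5.73 CPM in sham. Of 33 ERR and PGC-1 target genes of oxidative metabolism, 22 fell and 1 rose with FG-3149, and 29 fell and 0 rose with IgG, with median log2 fold changes of -0.22 and -0.29. Idh3a, a subunit of the citric acid cycle's isocitrate dehydrogenase, fell to 588.7 ± 44.0 CPM with FG-3149 and to 567.4 ± 36.1 CPM with IgG, against 748.2 ± 7.47 CPM in sham. Cs, citrate synthase, fell to 1601 ± 61.6 CPM with IgG, against 2077 ± 40.3 CPM in sham.

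In the lists of partners and regulators of the 10 genes, counts were smaller, and they stand beside the 13.9% of all tested genes that fell and 15.6% that rose with FG-3149, and the 15.9% that fell and 17.8% that rose with IgG. Among 14 coactivators, 6 fell and 1 rose with FG-3149, and 5 fell and 1 rose with IgG. Lpin1, which amplifies PGC-1α and PPARα activity, fell, with log2 fold changes of -0.39 ± 0.05 with FG-3149 and -0.43 ± 0.05 with IgG. Perm1, a muscle regulator induced by PGC-1 and ERR proteins and listed in the files under its synonym 2310042D19Rik, fell to 490.4 ± 27.8 CPM with FG-3149 and to 482.9 ± 26.1 CPM with IgG, against 592.5 ± 33.6 CPM in sham. Of 10 corepressors, 1 fell and 0 rose with FG-3149, and 1 fell and 1 rose with IgG, with list medians of 0.04 in each. Among 18 genes for kinases, deacetylases and factors upstream of PGC-1, 8 fell and 1 rose with FG-3149, and 10 fell and 2 rose with IgG. Mapk14, the p38α kinase that phosphorylates PGC-1α, fell to 88.2 ± 3.85 CPM with FG-3149 and to 81.1 ± 7.29 CPM with IgG, against 126 ± 2.63 CPM in sham. Prkab2, a regulatory subunit of AMP-activated kinase, rose to 109 ± 13.3 CPM with FG-3149 and to 104 ± 2.50 CPM with IgG, against 73.4 ± 2.84 CPM in sham. Of 19 other metabolic nuclear receptors, 3 fell and 2 rose with FG-3149, and 3 fell and 0 rose with IgG, so that their lower counts were near the share of all tested genes. Thrb, a thyroid hormone receptor, fell, with log2 fold changes of -0.38 ± 0.10 with FG-3149 and -0.32 ± 0.10 with IgG, and Thra, the main thyroid hormone receptor of heart muscle, fell to 68.4 ± 12.8 CPM with IgG, against 97.8 ± 4.51 CPM in sham. Of 16 factors of mitochondrial biogenesis, 4 fell with FG-3149 and 6 with IgG, and 0 rose. Gabpa, an activator of nuclear genes for mitochondrial proteins, fell, with log2 fold changes of -0.34 ± 0.08 with FG-3149 and -0.27 ± 0.07 with IgG. Mfn1, a protein of mitochondrial fusion, fell, with log2 fold changes of -0.21 ± 0.05 with FG-3149 and -0.31 ± 0.05 with IgG. The Thrb calls were lost without sham library 3, at an edgeR adjusted p of 0.0535 with FG-3149 and 0.0945 with IgG, and the call with IgG also with the replicate number as a block (edgeR adjusted p = 0.0695) and in every fit on RPKM. All of these named changes passed with all libraries at an edgeR adjusted p of 0.0193 or less.

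Some of these counts rested on single libraries. Without sham library 1, the upstream genes that fell with IgG numbered 5 rather than 10, the coactivators that fell with IgG 3 rather than 5, and the biogenesis factors that fell with FG-3149 2 rather than 4. Without sham library 2, the biogenesis factors that fell with IgG numbered 2 rather than 6. Without sham library 3, the other receptors numbered 1 lower and 0 higher with FG-3149. The corepressors numbered 0 to 2 higher and 1 to 2 lower with FG-3149 and 0 to 3 higher and 1 lower with IgG with single libraries left out. The single ERR and PGC-1 target gene called higher with FG-3149 was lost without FG-3149 library 2, 3 or 4 or sham library 1 or 2. Under all alternatives tried, single libraries left out included, between 20 and 23 PPAR target genes and between 18 and 24 ERR and PGC-1 target genes fell with FG-3149, and between 22 and 26 PPAR target genes and between 25 and 30 ERR and PGC-1 target genes fell with IgG.

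Between FG-3149 and IgG, 1 of 34 PPAR target genes and 3 of 33 ERR and PGC-1 target genes rose and 0 fell. Over all tested genes, 0.916% rose and 0.156% fell. The list medians were 0.11 and 0.08, beside -0.01 over all genes. Acot2, a mitochondrial thioesterase of long-chain acyl-CoA, rose to 57.9 ± 4.49 CPM with FG-3149, against 41.8 ± 8.20 CPM with IgG (edgeR adjusted p = 0.0404). It is nearly identical in sequence to Acot1, and reads shared between such copies make its value uncertain. Cox5a and Cox5b, subunits of cytochrome oxidase, rose by 0.37 ± 0.06 (edgeR adjusted p = 0.00417) and 0.27 ± 0.06 (edgeR adjusted p = 0.0404), and Uqcrfs1, the Rieske protein of complex III, by 0.25 ± 0.06 (edgeR adjusted p = 0.0397). On reads of the last exon alone, the difference of Cox5a was -0.05 on the log2 scale (edgeR adjusted p = 0.85). Cox5a kept its call in 22 of 23 alternatives. The call was lost in 15 for Acot2, in 14 for Cox5b and in 12 for Uqcrfs1. The lowest difference of Cox5b among them was 0.06. The count of PPAR target genes was 7 without IgG library 1 and 0 without FG-3149 library 3, 4 or 5 or IgG library 2, 3, 4 or 5. That of ERR and PGC-1 target genes was 1 without FG-3149 library 3, 4 or 5 or IgG library 2 or 5. Of 13 fibroblast markers, 2 fell with FG-3149, 0 rose and 11 did not pass. Those that fell were the matrix proteins Lum and Mfap5, with log2 fold changes of -0.41 ± 0.07 (edgeR adjusted p = 0.00393) and -0.63 ± 0.13 (edgeR adjusted p = 0.0349). Lum kept its call in all 23 alternatives, and Mfap5 lost it in 12. The count of fibroblast markers that fell was 4 without IgG library 1 and 1 without FG-3149 library 2, 3, 4 or 5 or IgG library 3 or 5. Without IgG libraries 4 and 5 together, 0 PPAR target genes and 1 ERR and PGC-1 target gene rose, and Acot2, Cox5b, Uqcrfs1 and Mfap5 did not pass (edgeR adjusted p = 0.156, 0.106, 0.14 and 0.101). In the same comparison none of the coactivator, corepressor, upstream, biogenesis or other receptor genes passed by edgeR.

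**Figure D5:**
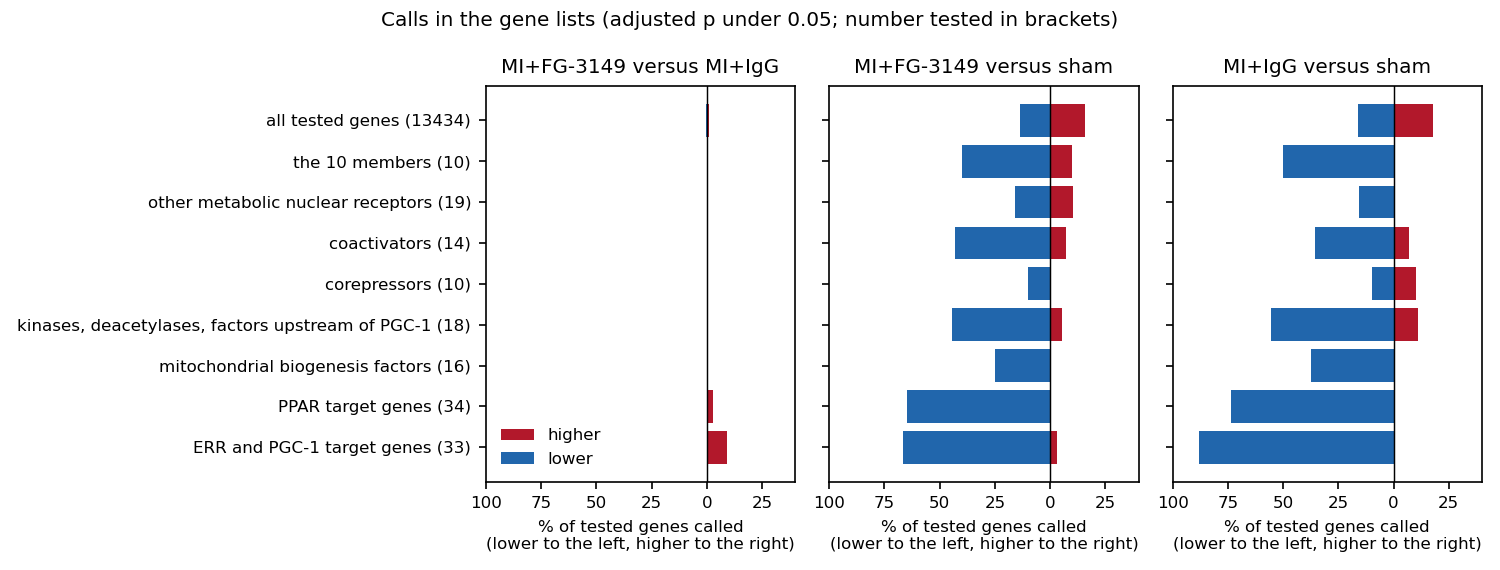
Share of tested genes of each list called higher (right of 0) or lower (left of 0) by edgeR, in percent, for the comparisons MI+FG-3149 versus MI+IgG, MI+FG-3149 versus sham and MI+IgG versus sham. Among the lists drawn, the target gene lists have the longest bars to the lower side in both comparisons with sham, with 25 of 34 PPAR target genes and 29 of 33 ERR and PGC-1 target genes lower with IgG.

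Within groups, members varied together only in part. After subtraction of group means, the log2 levels over 13 libraries correlated most between Ppara and Ppargc1a (Pearson's r = 0.74) and between Rxrg and Esrrg (r = 0.73), and were most opposed between Ppard and Rxra (r = -0.59). Depth and the position of reads along genes differed between these libraries, and the values are descriptions. Among 9383 genes searched in the same way, the closest to Rxrg were Zdhhc1 (r = 0.968), Lingo3 (0.95) and Elp3 (0.933), and among the closest to Ppargc1a were Wapal (0.919) and B3galnt2 (0.918). The single closest gene was Nt5dc3 for Ppara (0.938), Wdr46 for Ppard (0.903), Slu7 for Pparg (0.935), Abcc8 for Rxra (0.933), Yaf2 for Esrra (0.900), Gne for Esrrb (0.882), Pkia for Esrrg (0.932) and E430025E21Rik for Ppargc1b (0.928). With this many genes searched over 13 libraries, high coefficients occur for every member.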

How the data were processed

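The 13 libraries were grouped by sample title. Replicates are taken as separate animals from the design text alone, and p-values set group differences against the spread between these libraries. The authors deposited estimated counts per gene, transcript and exon and RPKM values per transcript, on mm10 per the labels. The aligner, counter and strand setting are not given in the sources used here. Estimates came within 0.01 of whole numbers for 79.4% of nonzero gene values.

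Gene counts were rounded to whole numbers, and 379 entries repeating a symbol were left out. In R 4.3.3, edgeR 4.0.16 (filterByExpr, TMM, robust quasi-likelihood fit of all 13 libraries) tested the 3 contrasts, with Benjamini-Hochberg adjustment over 13434 genes and calls at an adjusted p under 0.05. Intervals on log2 fold changes are 95% t intervals, and ± after a log2 fold change is its standard error. CPM is TMM-scaled, and ± after a CPM or RPKM value is the SD (n = 5, 5 and 3). A gene's first-exon share sums the first exons of all its multi-exon transcripts. It was computed over genes with a mean of at least 100 exon reads. Alternatives used limma 3.58.1 and DESeq2 1.42.0. Outside the 10 genes, the text names only genes among the up to 4 with the smallest p of each list and comparison, Ctgf, genes most alike to a member, and markers or clock genes that were added after their values were seen (Adipoq, Cidec, Plin1, Rn45s, Nr1d1 and Arntl). A gene that the rule on likeness also names is not reported here. The members and lists were chosen with earlier results of these data known.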

Additional observations from a re-analysis of the deposited data

Results flagged for a closer look

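One value of 1 member stood apart within its group. Esrra had 126.2 CPM in IgG library 2, against 136.1 to 138.9 CPM in the other 4 IgG libraries, a gap of 0.778 of the group's range, above the critical value of 0.71 for 5 samples. Of 20 groups of 5 libraries examined in this way, 1 was marked, and chance marks about 1 in 20.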

How the results depend on the processing

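Over the 30 member results (10 genes in 3 comparisons), 578 of 650 values under alternative processing kept their direction and side of the threshold, 15 lost and 7 gained a call, and 50 changed sign. Of the called member results, only Esrrg for FG-3149 against sham changed sign, in the 3 fits on RPKM of the highest transcript. Alternatives with the last exon only, with RPKM summed over transcripts and without FG-3149 library 3 and IgG library 5 or IgG libraries 4 and 5 together were chosen after seeing the data. Members lower with IgG than sham numbered 3 to 5 with libraries left out. Members lower with FG-3149 than sham numbered 2 to 4, and members higher 0 to 1, with 0 also in the 3 fits on log2 RPKM of the highest transcript and 2 with the last exon only (Ppard, 0.26, edgeR adjusted p = 0.0422). The number of all genes called between FG-3149 and IgG was 144, against 281 with DESeq2, 83 with only those 2 groups fitted, 240 and 224 on log2(RPKM + 1) and log2(RPKM + 0.1), 81 with the last exon, 50 without both fat-marker libraries, 70 without IgG libraries 4 and 5, and 68 to 271 with single libraries left out. The causes were not tested. Pparg, with the fewest reads of the 10 genes, had the widest intervals.

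Sign changes were as follows, in log2 units. On log2(RPKM + 1), with or without the filter, and on log2(RPKM + 0.1), Pparg (0.0833 and 0.122) and Esrrg (0.0774 and 0.0872) differed in sign for FG-3149 against sham, Ppargc1b (0.0046 and 0.0054) for IgG against sham, and Ppara (-0.24 and -0.26), Ppard (-0.021 and -0.022), Rxra (-0.013 and -0.014) and Esrrb (-0.087 and -0.096) for FG-3149 against IgG. Summed over transcripts, the values were -0.015 for Ppara, -0.021 for Ppard and -0.013 for Rxra between the antibodies and 0.0046 for Ppargc1b with IgG. With the last exon only, Pparg was 0.0914 for FG-3149 against sham and Cox5a -0.046 between the antibodies. Without both fat-marker libraries, Ppard (-0.034), Rxrg (-0.024) and Esrrg (-0.022) changed sign between the antibodies. Without IgG libraries 4 and 5, Ppara (-0.00139), Rxra (-0.0259), Rxrg (-0.0434) and Esrrg (-0.0333) did. With single libraries left out, ranges crossed 0 for Pparg (-0.15 to 0.28) and Ppargc1b (-0.108 to 0.0437) with IgG against sham, Pparg (-0.389 to 0.0426) with FG-3149 against sham, and Ppara (-0.0401 to 0.063), Ppard (-0.0277 to 0.0344), Rxra (-0.014 to 0.042) and Esrrg (-0.014 to 0.11) between the antibodies.

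Replicate numbers are shared by the groups but are not stated to pair animals, and were not taken to do so. Same-numbered FG-3149 and IgG libraries deviated together with correlations of -0.023 to 0.178, against -0.197 to 0.185 for differently numbered ones. Arntl was higher in libraries 1 and 2 than in libraries 4 and 5 of both infarcted groups, and a shared cause was not tested. With the number as a replicate block, the member calls did not change (4 lower and 1 higher with FG-3149, 5 lower with IgG, 0 between the antibodies), and 215 genes passed between the antibodies.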
